A study of Mus musculus with 17 samples.

Results

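The BCL2 family genes that set the balance between survival and death were followed in erythroid blasts of mice that constitutively express a Spi1 transgene (TgSpi1), with or without the Fanconi anaemia gene Fanca. The 10 members were chosen by gene name, not by level or change: Bcl2, Bcl2l1, Mcl1, Bcl2l2, Bak1, Bcl2l11, Bid, Bad, Bik and Bmf. All 10 were found, among 26029 genes in the count table of model 1 and 24659 genes in that of model 2, and 22088 genes were in both. RNA-seq was available for 17 mice, with 1 library per mouse, named here by the end of its sample title, and blasts kept in culture with erythropoietin (EPO), the growth factor that sustains erythroid progenitors. In model 1 (DBA2JxFVB/N background), the preleukaemic stage was represented by 4 TgSpi1FA+/+ animals (preleukemic_138, preleukemic_445, preleukemic_451 and preleukemic_479) and 3 TgSpi1FA-/- animals (preleukemic_40, preleukemic_77 and preleukemic_224), and the leukaemic stage by 3 TgSpi1FA-/- animals (leukemic_26, leukemic_28 and leukemic_39). In model 2 (DBA2J background) all animals were TgSpi1FA+/+, with 4 at the preleukaemic stage (preleukemic_633, preleukemic_663, preleukemic_812 and preleukemic_837) and 3 at the leukaemic stage (leukemic_601, leukemic_606 and leukemic_921). All 17 mice carried the transgene, so no group has normal Spi1 expression. The paper reports a Kit mutation in the blasts of leukemic_26 and an Nras mutation in those of leukemic_28 and leukemic_39. It describes model 2 as selecting leukaemic cells with Kit gain-of-function mutations, without giving them by mouse. The part of these mutations in the levels below was not tested. Fanca is deleted in the whole animal in the FA-/- mice, the leukaemic cells of model 2 arose after serial blood transfusion of preleukaemic mice, and the age of the mice is not given in the sources used here. The RNA input was 400 ng in model 1 and 300 ng in model 2, and fragmentation lasted 8 min and 2 min, so strain and library protocol cannot be told apart from the model.

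BCL2 family proteins meet at the outer membrane of mitochondria. The survival proteins BCL2, BCL-XL (Bcl2l1), MCL1 and BCL-W (Bcl2l2) hold back the effectors BAK (Bak1) and BAX, which form pores and release cytochrome c when set free. BH3-only proteins, here BIM (Bcl2l11), BID, BAD, BIK and BMF, bind the survival proteins or the effectors and tip the balance towards death. In erythroid cells, EPO signals through STAT5, and BCL-XL is known for keeping maturing erythroblasts alive.

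Each library of both models held 29964576 to 40514205 counts. Fanca had 28.1 to 83.5 CPM (counts scaled to the library size with the TMM factors of edgeR) in the FA+/+ groups of both models and 0.615 to 2.30 CPM in the FA-/- groups of model 1. All 9 erythroid markers examined were above 1 CPM in at least 1 library of each group, whereas no listed B cell marker reached 1 CPM in any library. For preleukemic_40, preleukemic_77 and preleukemic_224, the sample titles say preleukaemic and the column names leukaemic, and they were used as preleukaemic. The counts of preleukemic_445 and preleukemic_479 differed much less than those of other mice (chi-square over its degrees of freedom 6.38, and 79.4 to 259 for the 11 other pairs within a group of model 1). A second table held other counts for 7 of the model 1 mice, and there the same pair reached 249. Across genes, preleukemic_445 of the first table correlated more with preleukemic_479 of the second (r = 0.626) than with itself (r = 0.546, over 9346 genes), whereas the 6 other mice matched themselves best. The calls of the model 1 stage comparison are therefore given with and without these libraries.

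Mcl1 was the member with the highest level in every group, and Bmf and Bcl2 had the lowest levels. Per kilobase of exon, Mcl1 had 215 ± 33.0 CPM (SD, n = 3) in FA-/- leukaemic cells and 82.2 ± 15.5 (SD, n = 3) in FA-/- preleukaemic cells. In FA-/- preleukaemic cells, Bak1 came next with 71.3 ± 14.3 CPM per kb (SD, n = 3), which does not differ from Mcl1 beyond their spread, followed by Bid with 35.0 ± 3.44 and Bcl2l1 with 11.6 ± 4.40. In FA-/- leukaemic cells the next places were held by Bid (29.8 ± 2.65 CPM per kb, SD, n = 3), Bak1 (25.6 ± 6.23) and Bcl2l1 (24.2 ± 8.12), which overlap in their spread. Bad, Bcl2l2, Bcl2l11 and Bik had means of 0.773 to 13.9 CPM per kb over the 5 groups. In leukaemic cells of model 2, Bad (13.9 ± 1.62 CPM per kb, SD, n = 3) was ahead of Bcl2l1 (7.43 ± 5.25), and their spreads overlap. Bcl2 did not exceed 1.04 CPM per kb in the mean of a group, and Bmf did not exceed 0.518.

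**Figure D1:**
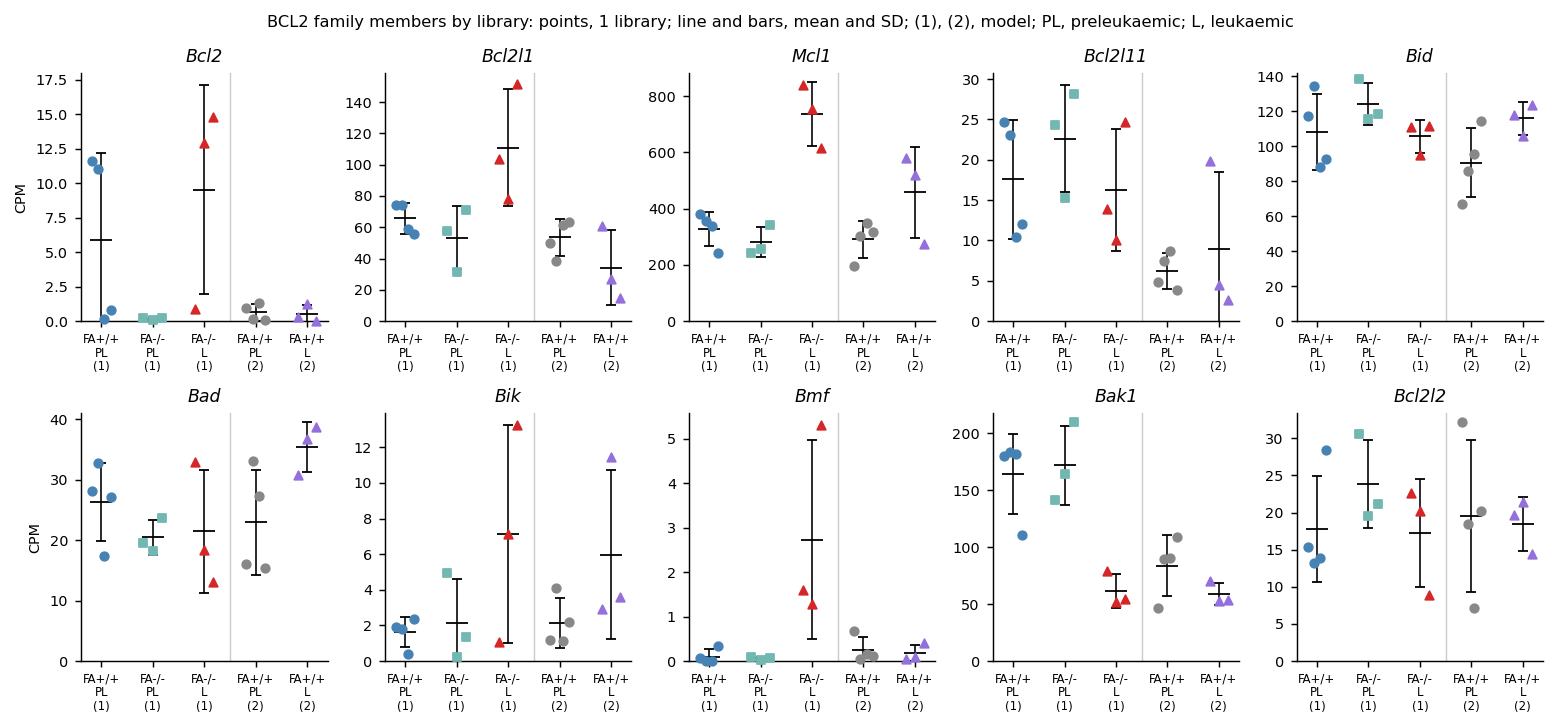
Level of each BCL2 family member in CPM (vertical axis, linear from 0) in the 5 groups of both models, with 1 point per library, and the group mean and SD as a line and bars (bars are cut at 0). Mcl1 of FA-/- leukaemic cells sat between 615 and 838 CPM, above all other libraries, and Bak1 of the same cells sat between 52.1 and 79.0 CPM, below all preleukaemic libraries of model 1.

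The first comparison asked which members differed between FA-/- leukaemic and FA-/- preleukaemic cells of model 1. Mcl1 and Bmf were higher and Bak1 was lower in leukaemic cells, so 3 of the 10 members passed the test, where 13.3% of the 13393 genes tested did (6.82% higher and 6.49% lower). Bmf entered the test only through its counts in the leukaemic libraries. Its call, its rise and the separation of its groups thus add no support of their own to the counts and the median given here. A gene was called at a Benjamini-Hochberg adjusted p under 0.05 in edgeR's quasi-likelihood test with a fold change of at least 1.5. The median log2 fold change of the members was 0.56, against -0.0012 over all genes, and 6 members were above 0 and 4 below. The groups did not overlap for 6 members, 4 of them higher (Bcl2, Bcl2l1, Mcl1 and Bmf) and 2 lower (Bid and Bak1), where 38.7% of all genes did not overlap. With 3 mice against 3, the exact permutation test cannot give a p under 0.1 for any of them. The p-values measure the spread between the model 1 mice, with preleukemic_445 and preleukemic_479 counted as 2 mice although their libraries are nearly identical. Without both, 759 genes and 2 of the members (Mcl1 and Bak1) were called. In these bulk samples, fewer cells of a type and less RNA per cell cannot be told apart.

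**Figure D2:**
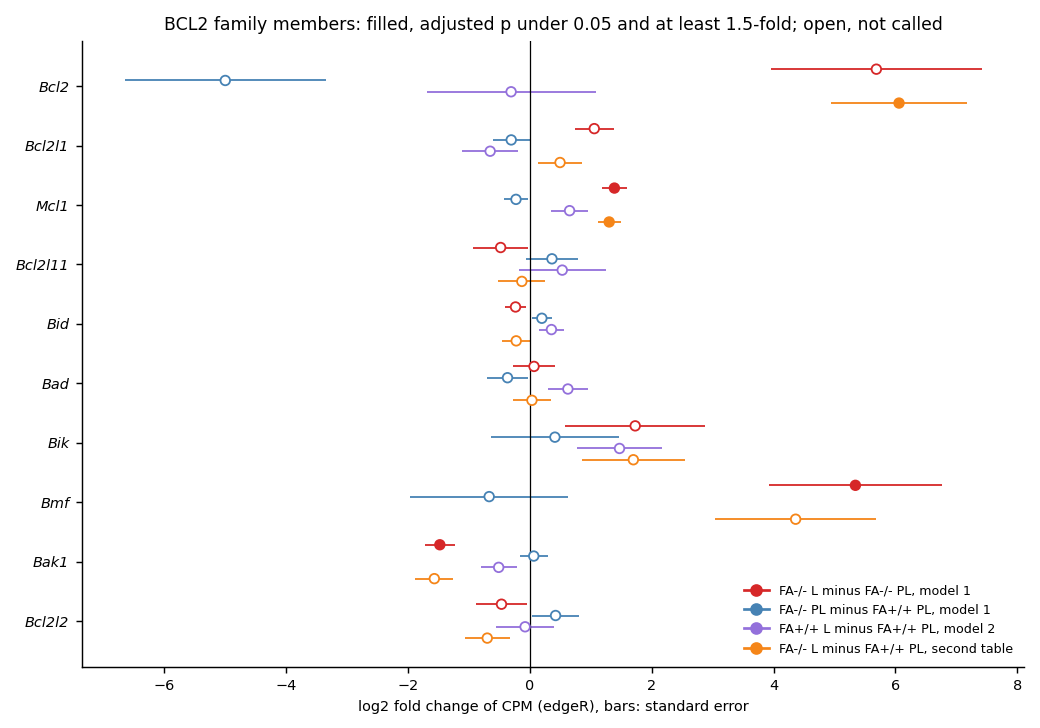
Log2 fold change (horizontal axis) of each member in 4 comparisons, with the standard error as bars, filled where the adjusted p was under 0.05 and the change at least 1.5-fold. Mcl1, Bmf and Bak1 were called between leukaemic and preleukaemic FA-/- cells of model 1, Mcl1 and Bcl2 in the second table, and no member in the other comparisons (Bmf of model 2 did not pass the filter on low counts).

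The promoter windows of the 3 members called in model 1 are shown because these members carry the calls of this comparison. They span 250 bases before to 50 bases after the RefSeq start (GRCm38.p6), and 6 motifs were searched on both strands, with matches in capitals. The motif searched for STAT factors, which act downstream of EPO, was TTCNNNGAA. The motif searched for SPI1, the transgene product, was GAGGAAG. For GATA factors, which drive erythroid genes, it was AGATAA. The general motifs were GGGCGG for SP1, CACGTG as the E-box, and the CRE palindrome TGACGTCA. No motif contains another.
Mcl1, chr3:95658471-95658770, plus strand: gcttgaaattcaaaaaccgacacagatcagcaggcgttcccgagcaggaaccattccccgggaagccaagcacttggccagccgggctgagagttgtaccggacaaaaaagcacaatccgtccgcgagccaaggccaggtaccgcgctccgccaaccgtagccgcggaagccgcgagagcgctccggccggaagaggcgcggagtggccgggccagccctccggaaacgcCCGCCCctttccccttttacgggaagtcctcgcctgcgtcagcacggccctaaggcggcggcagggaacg
Bmf, chr2:118549637-118549936, minus strand: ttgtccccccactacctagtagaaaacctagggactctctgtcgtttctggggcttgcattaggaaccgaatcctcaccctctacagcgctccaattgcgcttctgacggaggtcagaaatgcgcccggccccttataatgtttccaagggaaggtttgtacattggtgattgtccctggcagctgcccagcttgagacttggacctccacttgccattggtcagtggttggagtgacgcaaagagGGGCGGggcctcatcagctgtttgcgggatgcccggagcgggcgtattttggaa
Bak1, chr17:27028578-27028877, minus strand: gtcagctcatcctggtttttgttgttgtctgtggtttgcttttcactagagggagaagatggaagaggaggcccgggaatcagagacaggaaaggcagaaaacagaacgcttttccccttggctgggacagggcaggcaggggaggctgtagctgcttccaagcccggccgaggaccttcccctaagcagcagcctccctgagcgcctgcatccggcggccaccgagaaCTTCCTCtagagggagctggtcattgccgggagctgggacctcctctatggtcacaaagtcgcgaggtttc
The Mcl1 and Bmf windows each held 1 match to GGGCGG, a motif found in 35.6% of the 32817 promoter windows. The Bak1 window held 1 match to GAGGAAG, which 13.6% of windows hold, and its RefSeq start lies 382 bases inside the gene as annotated by GENCODE. Windows were found for 9 of the 10 members, of which 7 held GGGCGG (Bcl2, Mcl1, Bcl2l11, Bid, Bad, Bmf and Bcl2l2) and 3 held GAGGAAG (Bcl2, Bak1 and Bcl2l2). None of the 9 windows held the other 4 motifs, which are in 8.29% (STAT), 11.2% (GATA), 7.15% (E-box) and 1.79% (CRE) of all windows.

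Mcl1 (ENSMUSG00000038612, plus strand of chromosome 3 from 95658788 to 95663176, GRCm38) encodes a short-lived survival protein that blood progenitors depend on. Its level was 838, 753 and 615 CPM in the leukaemic mice leukemic_26, leukemic_28 and leukemic_39, against 244, 258 and 341 CPM in the FA-/- preleukaemic mice preleukemic_77, preleukemic_224 and preleukemic_40. All 3 leukaemic libraries were thus above every preleukaemic library. The mean was 735 ± 113 CPM (SD, n = 3) against 281 ± 52.8 (SD, n = 3), a 2.62-fold increase (log2 fold change 1.39, standard error 0.21, adjusted p = 0.00836). The call held without each library in turn (log2 1.29 to 1.55, highest adjusted p = 0.0381) and without preleukemic_445 and preleukemic_479 (log2 1.38, adjusted p = 0.0254).

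Genes close to Mcl1 moved with it, which was looked at after the values of Mcl1 were known. Of 78 genes tested within 1 Mb of Mcl1, 32 were called higher and 0 lower in the FA-/- leukaemic cells, with a median log2 fold change of 1.44. Around the 9 other members, the median of the neighbours was between -0.32 and 0.36. Against the mean of the FA-/- preleukaemic libraries, the 42 neighbours with more than 5 CPM had a median difference in log2(CPM + 0.1) of 0.86 in leukemic_26, 1.56 in leukemic_28 and 1.60 in leukemic_39. The rest of chromosome 3 had medians of 0.11, 0.07 and 0.09 in these mice. Mcl1 itself was above that mean by 1.59, 1.44 and 1.15, so it exceeded its neighbours in leukemic_26 and stayed below them in leukemic_28 and leukemic_39. The part of the region in the increase of Mcl1 was not tested.

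**Figure D3:**
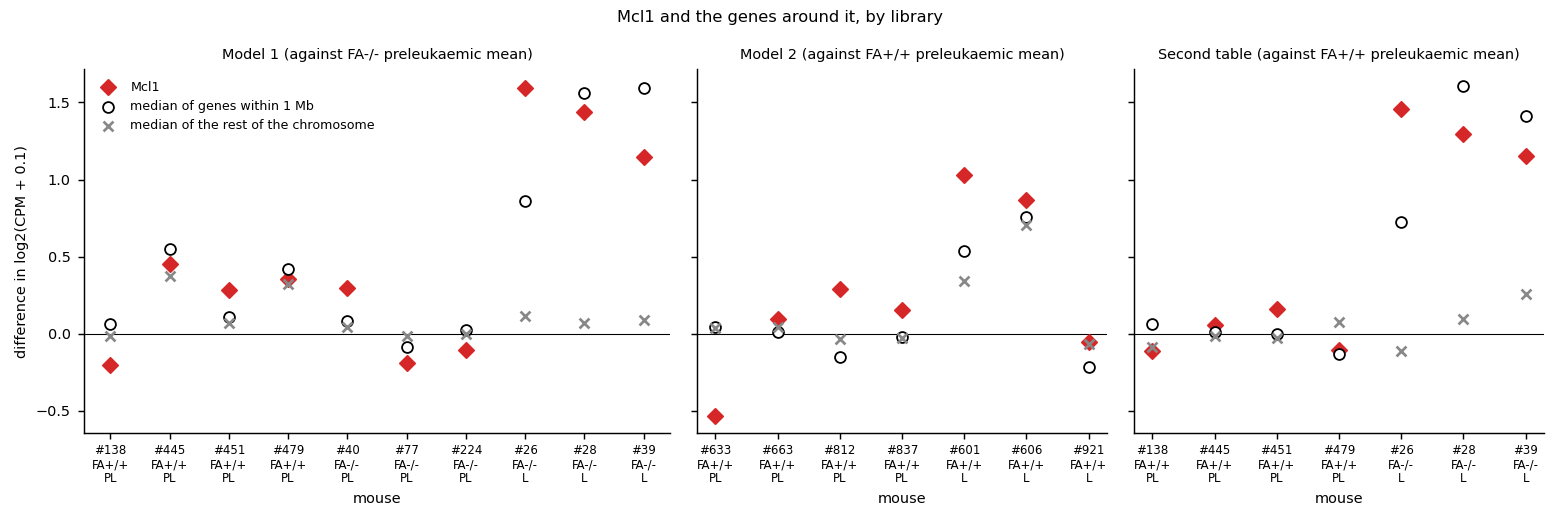
Difference in log2(CPM + 0.1) from the mean of the preleukaemic group (vertical axis) in each mouse (horizontal axis, by the number that ends its title), for Mcl1, for the median of the genes within 1 Mb of it and for the median of the other genes of its chromosome. In the leukaemic mice of model 1 both Mcl1 and its neighbours were above 0.7 while the rest of the chromosome stayed within 0.26 of 0, and in model 2 Mcl1 was high in leukemic_601 and leukemic_606, where the whole chromosome was, and not in leukemic_921.

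Bcl2 (ENSMUSG00000057329, minus strand of chromosome 1 from 106538178 to 106714274) is the founding survival gene of the family. It had 0.850, 12.9 and 14.8 CPM in the leukaemic mice leukemic_26, leukemic_28 and leukemic_39, and 0.230, 0.0585 and 0.259 CPM in the FA-/- preleukaemic mice preleukemic_77, preleukemic_224 and preleukemic_40. The groups did not overlap, but leukemic_26 was close to the preleukaemic libraries. The log2 fold change of 5.69 (standard error 1.73) had an adjusted p of 0.0566 and was not called. It was called by DESeq2's Wald test (adjusted p = 0.000218), in a fit of only both groups (0.0438), and without preleukemic_451 (0.0343), preleukemic_138 (0.0489) or leukemic_26 (0.0366). Without preleukemic_445 and preleukemic_479 the adjusted p was 0.0516. Its exons overlap those of an antisense gene over 558 bases, and whether the counting used the strand is not given in the sources used here.

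Bcl2l1 (ENSMUSG00000007659, minus strand of chromosome 2 from 152780668 to 152831728), which encodes the erythroblast survival protein BCL-XL, had 103, 78.0 and 151 CPM in the leukaemic mice leukemic_26, leukemic_28 and leukemic_39. In the FA-/- preleukaemic mice preleukemic_77, preleukemic_224 and preleukemic_40 it had 57.6, 31.3 and 70.9 CPM. The leukaemic libraries were all higher, although leukemic_28 exceeded preleukemic_40 by little. The log2 fold change was 1.06 (standard error 0.32, adjusted p = 0.0576), which was not called, whereas DESeq2's Wald test called it (adjusted p = 0.0229). Bcl2l2 (ENSMUSG00000089682, chromosome 14 from 54883377 to 54888234), for the survival protein BCL-W, had 8.95 to 22.6 CPM in leukaemic and 19.6 to 30.6 CPM in FA-/- preleukaemic cells (log2 fold change -0.46, standard error 0.42, adjusted p = 0.478). Bcl2l2 shares 594 bases of exon with Gm20521 on the same strand, so its count is uncertain. DESeq2's Wald test called 5 members in all (Bcl2, Bcl2l1, Mcl1, Bmf and Bak1), where it called 19.8% of the genes it tested.

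Bak1 (ENSMUSG00000057789, minus strand of chromosome 17 from 27019810 to 27029009) encodes the pore-forming effector BAK. It had 79.0, 52.1 and 54.0 CPM in the leukaemic mice leukemic_26, leukemic_28 and leukemic_39, against 142, 164 and 209 CPM in the FA-/- preleukaemic mice preleukemic_77, preleukemic_224 and preleukemic_40. Every leukaemic library was below every preleukaemic library of model 1, FA+/+ mice included. The mean was 61.7 ± 15.0 CPM (SD, n = 3) against 172 ± 34.5 (SD, n = 3), a 2.78-fold decrease (log2 fold change -1.48, standard error 0.25, adjusted p = 0.0116). The adjusted p was 0.0529 without leukemic_28, and the call held without each other library and without preleukemic_445 and preleukemic_479 (log2 -1.48, adjusted p = 0.0324). Around Bak1, 40 genes tested within 1 Mb had a median log2 fold change of -0.17, with 2 called higher and 2 lower. The gene shares 614 bases of exon with Ggnbp1 on the opposite strand.

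Since MCL1 holds BAK inactive, their transcripts were also set side by side in each library. Per kilobase, the Mcl1 level was 7.47, 10.2 and 8.01 times that of Bak1 in the FA-/- leukaemic mice leukemic_26, leukemic_28 and leukemic_39. It was 1.11 to 1.21 times that of Bak1 in the FA-/- preleukaemic mice and 1.31 to 1.53 times in the FA+/+ preleukaemic mice of model 1. In model 2 the ratio was 5.82, 6.89 and 3.60 in the leukaemic mice leukemic_601, leukemic_606 and leukemic_921, and 2.05 to 2.97 in the preleukaemic mice. The leukaemic libraries of each model had a higher ratio than all preleukaemic libraries of that model. In model 1 this was fixed in advance, since every leukaemic library was higher in Mcl1 and lower in Bak1. In model 2 the groups of each gene alone overlapped. The ratio was built after the values of both genes were known and is given without a test.

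**Figure D4:**
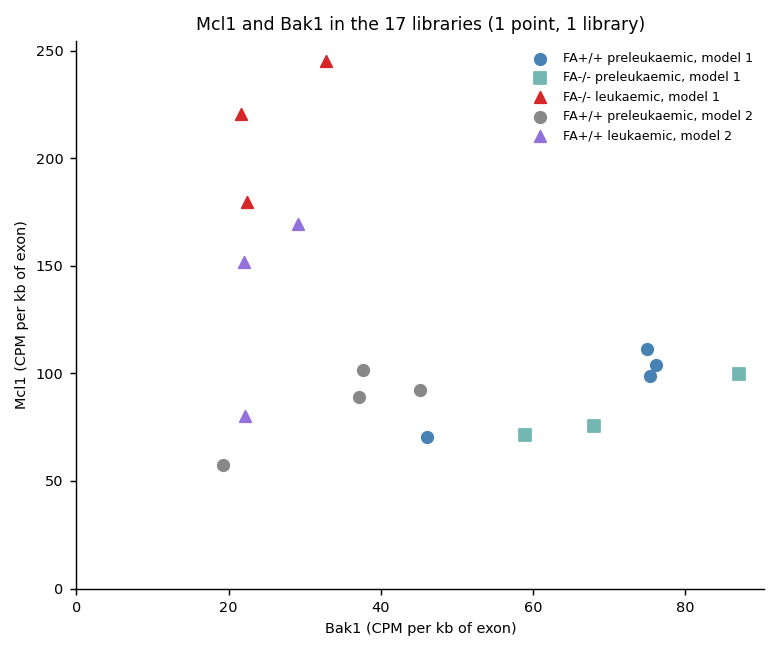
Mcl1 against Bak1 in CPM per kilobase of exon (both axes linear from 0), with 1 point for each of the 17 libraries. The FA-/- leukaemic mice lay at the upper left (Mcl1 180 to 245, Bak1 21.7 to 32.8), the FA-/- preleukaemic mice at the lower right (Mcl1 71.3 to 99.9, Bak1 58.9 to 87.0), and the leukaemic mouse of model 2 with the lowest Mcl1 level (80.0) lay at the level of the preleukaemic mice for Mcl1.

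Among the BH3-only genes, Bmf was called higher in the leukaemic cells, from a level near 0. It passed the filter on low counts only through the FA-/- leukaemic libraries. The FA+/+ preleukaemic libraries of model 1 held 0 to 12 counts. The call of Bmf thus rests on the group that let it into the test. Bmf (ENSMUSG00000040093, minus strand of chromosome 2 from 118528757 to 118549687), whose protein binds and counters BCL2-type survival proteins, had 1.59, 1.28 and 5.30 CPM in leukemic_26, leukemic_28 and leukemic_39. These levels came from 58, 50 and 209 counts, against 3, 1 and 2 counts in the preleukaemic mice preleukemic_77, preleukemic_224 and preleukemic_40. All FA-/- leukaemic libraries were above all preleukaemic libraries of both models. The leukaemic libraries of model 2 were not, with 0.0513 to 0.397 CPM against up to 0.681 CPM in its preleukaemic libraries. Against the floor of 3 counts per library, the increase was at least 28.8-fold (15.2-fold without leukemic_39 and up to 36.5-fold without leukemic_28), with a fitted adjusted p of 0.0388. The call was lost without preleukemic_445 (0.0591), preleukemic_77 (0.0951), preleukemic_224 (0.126), preleukemic_40 (0.105), leukemic_28 (0.0771) or leukemic_39 (0.0958), and without preleukemic_445 and preleukemic_479 together (0.0595).

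Bik (ENSMUSG00000016758, chromosome 15 from 83526862 to 83544634), a BH3-only gene of the endoplasmic reticulum pathway, had 1.04, 7.13 and 13.2 CPM in leukemic_26, leukemic_28 and leukemic_39. In preleukemic_77, preleukemic_224 and preleukemic_40 it had 4.92, 0.205 and 1.33 CPM. The leukaemic mouse leukemic_26 lay within the preleukaemic range, as it was close to it for Bcl2, and the log2 fold change of 1.73 (standard error 1.15) had an adjusted p of 0.329. Bcl2l11 (ENSMUSG00000027381, chromosome 2 from 128126038 to 128162547), for the potent death inducer BIM, had 10.1 to 24.7 CPM in leukaemic and 15.3 to 28.2 CPM in preleukaemic cells (log2 fold change -0.48, standard error 0.45, adjusted p = 0.504). Bad (ENSMUSG00000024959, chromosome 19 from 6941861 to 6951899), whose protein is held inactive by growth factor signalling, had 13.2 to 32.9 CPM against 18.2 to 23.6 CPM (log2 fold change 0.07, standard error 0.35, adjusted p = 0.918). Bid (ENSMUSG00000004446, chromosome 6 from 120891930 to 120916853), which links death receptors to mitochondria, had 106 ± 9.42 CPM (SD, n = 3) in leukaemic and 124 ± 12.2 CPM (SD, n = 3) in preleukaemic cells. Its groups did not overlap, but the difference was small (log2 fold change -0.23, standard error 0.17, adjusted p = 0.384). Exons of Bid and Bad overlap those of Bcl2l13 (628 bases) and Gpr137 (524 bases) on the opposite strand.

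The second comparison asked whether Fanca deletion went with a change of the members before leukaemia. Between FA-/- and FA+/+ preleukaemic cells of model 1, 0 of the 10 members were called by edgeR, where 0.00747% of the genes tested (1 gene) were. At an unadjusted p under 0.05 there was 1 member, Bcl2, where 8.65% of all genes passed, and DESeq2's Wald test also called Bcl2 alone, where it called 1.87%. No member had groups apart, where 8.53% of all genes did (4.26% higher and 4.27% lower). Mcl1 had 380, 356, 338 and 241 CPM in preleukemic_445, preleukemic_479, preleukemic_451 and preleukemic_138 (log2 fold change -0.23, standard error 0.19, adjusted p = 0.788), and Bak1 had 180, 183, 182 and 111 CPM (log2 fold change 0.07, standard error 0.23, adjusted p = 0.967). The values of these genes overlapped between the genotypes.

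Bcl2 in the FA+/+ preleukaemic mice rested on the nearly identical libraries. It had 11.6 and 11.0 CPM in preleukemic_445 and preleukemic_479 but 0.160 and 0.823 CPM in preleukemic_451 and preleukemic_138. Of the low values, that of preleukemic_451 was within the range of the FA-/- preleukaemic mice (0.0585 to 0.259 CPM) and that of preleukemic_138 was above it. The log2 fold change was -5.00 (standard error 1.65, adjusted p = 0.535 in edgeR and 0.00541 in DESeq2), and -1.42 (adjusted p = 1) without preleukemic_445 and preleukemic_479. In the second table, Bcl2 had 0.0455 CPM in preleukemic_445 and 0.181 CPM in preleukemic_479.

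The third comparison asked whether the members changed in leukaemic cells that have Fanca. Between leukaemic and preleukaemic FA+/+ cells of model 2, 9 members were tested, since Bmf with at most 27 counts did not pass the filter, and 0 were called by edgeR, where 0% of the 12970 genes tested were. No member had an unadjusted p under 0.05, where 19.9% of all genes did, and none was called by DESeq2's Wald test, where 3.45% were. The groups of every member overlapped, where those of 20.1% of all genes were apart (9.65% higher and 10.4% lower). Mcl1 had 580, 518 and 273 CPM in the leukaemic mice leukemic_601, leukemic_606 and leukemic_921, and 196, 304, 347 and 316 CPM in the preleukaemic mice preleukemic_633, preleukemic_663, preleukemic_812 and preleukemic_837 (log2 fold change 0.65, standard error 0.31, adjusted p = 0.282). It was high in leukemic_601 and leukemic_606 and within the preleukaemic range in leukemic_921.

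The neighbours of Mcl1 were, like Mcl1, above the preleukaemic mean in leukemic_601 and leukemic_606 of model 2 and not in leukemic_921. Within 1 Mb, the median difference in log2(CPM + 0.1) of 42 genes from the preleukaemic mean was 0.53 in leukemic_601, 0.76 in leukemic_606 and -0.22 in leukemic_921, while Mcl1 itself differed by 1.03, 0.87 and -0.06. The rest of chromosome 3 (389 genes) had medians of 0.34, 0.70 and -0.07 in these mice. The part of the chromosome in the level of Mcl1 was not tested.

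Bak1 had 70.2, 53.0 and 53.4 CPM in the leukaemic mice of model 2, and 46.5, 89.5, 90.5 and 109 CPM in the preleukaemic mice preleukemic_633, preleukemic_663, preleukemic_812 and preleukemic_837. It was lower than in 3 of the 4 preleukaemic mice, and preleukemic_633 overlapped (log2 fold change -0.51, standard error 0.30, adjusted p = 0.371). Bcl2l1 had 61.0, 26.6 and 14.6 CPM in leukemic_601, leukemic_606 and leukemic_921 against 38.5 to 63.4 CPM (log2 fold change -0.65, standard error 0.46, adjusted p = 0.470). Bik had 2.90, 11.4 and 3.58 CPM against 1.12 to 4.12 CPM (log2 fold change 1.47, standard error 0.70, adjusted p = 0.285). The other members had log2 fold changes between -0.31 (Bcl2) and 0.63 (Bad), and Bcl2 stayed at or below 1.28 CPM in all 7 mice of model 2.

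The difference between both models was tested itself, as an interaction over all 17 libraries. It was called for 0 of the 10 members by edgeR, where 4.61% of 14597 genes were called (2.76% higher and 1.85% lower). At an unadjusted p under 0.05 there were 5 members (Bcl2, Bcl2l1, Bid, Bmf and Bak1), where 25.8% of all genes passed, and DESeq2's Wald test called 3 (Bcl2, Bcl2l1 and Bmf), where it called 13.5%. The closest were Bmf (log2 difference 5.77, standard error 1.84, adjusted p = 0.0731) and Bcl2l1 (1.71, standard error 0.58, adjusted p = 0.0841). For Mcl1 the difference was 0.73 (standard error 0.38, adjusted p = 0.236) and for Bak1 it was -0.97 (standard error 0.39, adjusted p = 0.136). For neither gene was a difference between the models shown.

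The second table allowed FA-/- leukaemic and FA+/+ preleukaemic cells to be compared in other counts of the same 7 mice, at 35497594 to 171572736 counts per library. No FA-/- preleukaemic library is in the second table, so genotype and stage change together there and cannot be told apart. This comparison was added after the data were seen. Mcl1 and Bcl2 were called higher, 2 of the 10 members where 1.59% of the 16799 genes tested were called (1.35% higher and 0.244% lower), and DESeq2's Wald test called 4 members (Bcl2, Mcl1, Bmf and Bak1) and 9.79% of genes. Groups were apart for 3 members in the higher direction (Bcl2, Mcl1 and Bmf) and 1 in the lower (Bak1), where 18.6% of all genes were apart (10.5% higher and 8.07% lower). Bcl2, with 4 to 22 counts in the FA+/+ preleukaemic libraries, and Bmf, with 0 to 32, passed the filter only through the leukaemic libraries. Neither gene adds support of its own to these counts of members. Mcl1 had 730, 650 and 589 CPM in leukemic_26, leukemic_28 and leukemic_39, against 246, 276, 296 and 246 CPM in preleukemic_138, preleukemic_445, preleukemic_451 and preleukemic_479 (log2 fold change 1.30, standard error 0.19, adjusted p = 0.0236). The groups were apart as in the first table, but the call was lost without leukemic_28 (0.0988), preleukemic_445 (0.0811), preleukemic_451 (0.0502) or preleukemic_479 (0.0821). The neighbours of Mcl1 within 1 Mb (54 genes) had medians of 0.72, 1.61 and 1.41 above the preleukaemic mean in leukemic_26, leukemic_28 and leukemic_39.

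In the second table Bcl2 had 0.610, 15.6 and 5.30 CPM in leukemic_26, leukemic_28 and leukemic_39 and 0.0455 to 0.181 CPM in the FA+/+ preleukaemic mice (log2 fold change 6.06, standard error 1.11, adjusted p = 0.0444). The same groups in the table of model 1 gave a log2 fold change of 0.69 (adjusted p = 0.774), since preleukemic_445 and preleukemic_479 were high there. The call was also lost without each mouse other than leukemic_26, with adjusted p values of up to 0.138. Bak1 had 59.7, 45.2 and 31.5 CPM against 92.0, 184, 131 and 132 CPM in preleukemic_138, preleukemic_445, preleukemic_451 and preleukemic_479 (log2 fold change -1.57, standard error 0.31), with groups apart and an adjusted p of 0.0561 (0.0352 without leukemic_26 and 0.0425 without preleukemic_138). In the table of model 1, Bak1 was called for these groups (log2 -1.41, adjusted p = 0.0169). Bmf had 0.588, 3.70 and 5.35 CPM against 0 to 0.348 CPM (log2 fold change 4.36, standard error 1.32, adjusted p = 0.150).

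**Figure D5:**
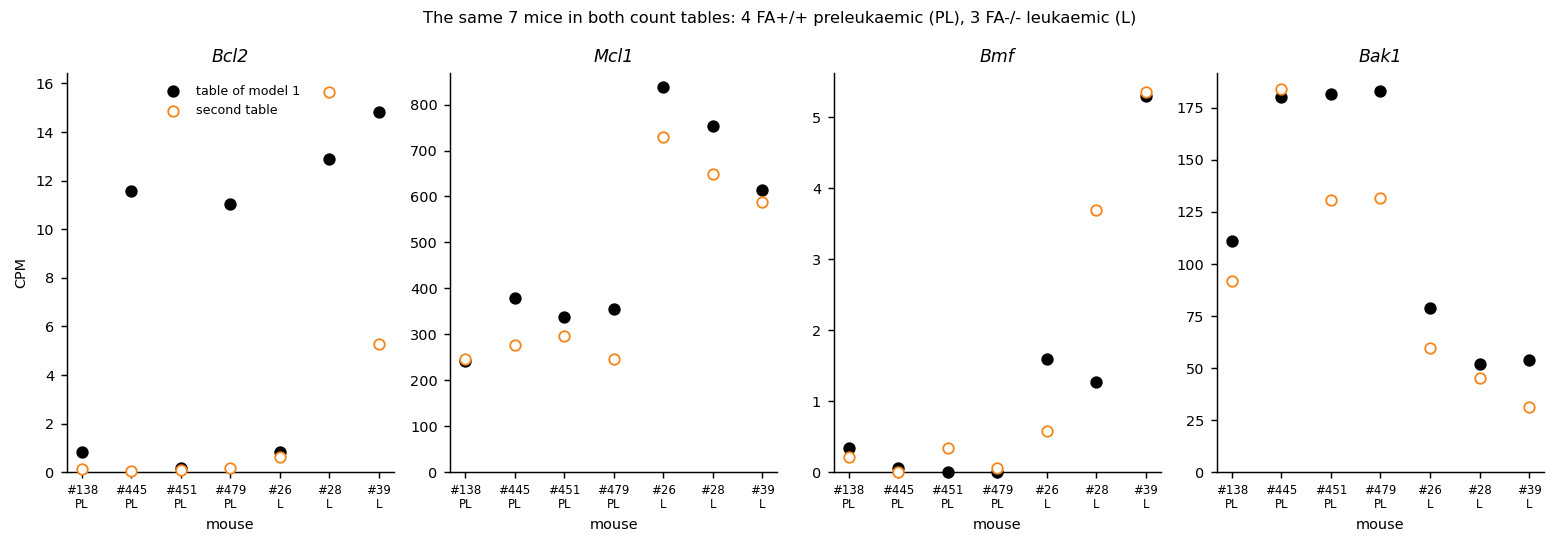
CPM (vertical axes, linear from 0) of Bcl2, Mcl1, Bmf and Bak1 in the 7 mice that are in both count tables, with filled points for the table of model 1 and open points for the second table. Bcl2 of preleukemic_445 and preleukemic_479 was 11.6 and 11.0 CPM in the first table and below 0.2 CPM in the second, whereas Mcl1 was above 580 CPM in all leukaemic mice and below 390 CPM in all preleukaemic mice of both tables.

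Other genes of the pathway were followed by lists. Of the 15 other BCL2 family genes, 9 were tested between FA-/- leukaemic and preleukaemic cells of model 1, with 3 called higher and 0 lower (median log2 fold change 0.09), where 6.82% of all genes tested were called higher and 6.49% lower. The p53 target Bbc3, for the BH3-only protein PUMA, had 29.5 to 40.9 CPM in leukaemic and 16.4 to 17.6 CPM in preleukaemic cells (log2 0.99, standard error 0.19, adjusted p = 0.0165), and 0.0575 without preleukemic_224. Bnip3, a mitophagy gene induced in hypoxia, was at 7.23 to 30.7 CPM against 5.42 to 5.67 CPM (log2 1.62, adjusted p = 0.0492), a call lost without 9 of the 10 libraries, where the adjusted p reached 0.125. Bcl2l15 was at 0.411 to 2.48 CPM against 0 to 0.164 CPM (log2 4.17, adjusted p = 0.0319), lost without preleukemic_224, preleukemic_40, leukemic_28 or leukemic_39 (up to 0.110). Without preleukemic_445 and preleukemic_479 together, the call of Bbc3 held (adjusted p = 0.0490), and those of Bnip3 (0.101) and Bcl2l15 (0.0687) were lost. In a fit of only both groups, Bnip3 (0.110) and Bcl2l15 (0.0715) were lost too. The genes of this list with the highest mean level were Bcl2l13, Bnip3l and Bax in model 1 (276, 170 and 92.5 CPM over 10 libraries) and Bnip3l (305 to 657 CPM), Bnip3 (21.6 to 544 CPM) and Bcl2l13 (145 to 341 CPM) in the 7 libraries of model 2. Bax, for the effector that acts beside BAK, was at 83.0 to 91.8 CPM in the FA-/- leukaemic mice and 86.3 to 147 CPM in the FA-/- preleukaemic mice (log2 fold change -0.30, standard error 0.19, adjusted p = 0.320).

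The apoptosome and caspase list holds genes that act after the mitochondrial pore. Of its 13 tested genes, 0 were called higher and 5 lower in FA-/- leukaemic cells, against 6.82% and 6.49% of all genes. The median log2 fold change was -0.52 over the list and -0.0012 over all genes, with 4 genes of the list above 0 and 9 below. Htra2, a mitochondrial protease that counters inhibitors of apoptosis, had 76.5 to 114 CPM against 209 to 257 CPM (log2 -1.32, standard error 0.18, adjusted p = 0.00557). Apaf1, the scaffold of the apoptosome, had a log2 fold change of -0.92, its initiator caspase Casp9 of -0.73, Casp2 of -0.60 and the mitochondrial flavoprotein gene Aifm1 of -0.82. Of these 5 calls, that of Htra2 held without each library in turn. Aifm1 was lost without preleukemic_224 (0.0662) or leukemic_28 (0.0771), and Apaf1 without 5, Casp9 without 7 and Casp2 without 7 of the 10 libraries, with adjusted p values of up to 0.0948, 0.139 and 0.138. Without preleukemic_445 and preleukemic_479 together, Htra2 remained called (adjusted p = 0.0211), and Apaf1 (0.0537), Casp9 (0.0901), Casp2 (0.0776) and Aifm1 (0.0531) did not. In a fit of only both groups, Casp9 (0.104), Casp2 (0.0963) and Aifm1 (0.0560) were lost, and without a filter on low counts Casp9 (0.0889) and Casp2 (0.0720).

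None of the 5 inhibitor of apoptosis genes was called by edgeR in model 1. Of 7 death receptor pathway genes, Ripk1, a kinase at the branch between survival and necroptosis, was lower (log2 fold change -1.28, adjusted p = 0.0125, held without each library), 1 of 7 where 6.49% of all genes were called lower. Of the 10 tested regulators of BCL2 family proteins, 0 were called higher and 3 lower, against the same 6.82% and 6.49% of all genes. Stat5a, which carries the EPO signal, had 44.4 to 90.1 CPM in leukaemic against 135 to 188 CPM in preleukaemic cells (log2 -1.32, adjusted p = 0.0165, and 0.0539 without preleukemic_224). The BCL2-binding cochaperone gene Bag1 had a log2 fold change of -1.20 (adjusted p = 0.0136, and 0.0609 without leukemic_28), and the autophagy gene Becn1 of -0.59 (adjusted p = 0.0200), which was at the limit of the fold change and was lost without 7 of the 10 libraries (adjusted p up to 0.0655). Without preleukemic_445 and preleukemic_479 together, the calls of Ripk1 (0.0254), Stat5a (0.0482) and Bag1 (0.0393) held, and that of Becn1 was lost (0.0529), as in a fit of only both groups (0.0512). No gene of these 5 lists was called by edgeR between the genotypes or in model 2. In the second table, Htra2 was the only gene of these 5 lists called (log2 -1.57, adjusted p = 0.0407). Its adjusted p was 0.0532 to 0.163 without preleukemic_138, preleukemic_445, preleukemic_479, leukemic_28 or leukemic_39.

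Markers of other blood cells were followed beside these groups. The summed level of the 9 erythroid markers was 2220 to 4519 CPM in FA-/- leukaemic and 5055 to 5279 CPM in FA-/- preleukaemic libraries, and Klf1, an erythroid transcription factor, was called lower (log2 -1.27, adjusted p = 0.00626). The summed level of the 5 megakaryocyte markers was 163 to 251 CPM against 31.2 to 39.3 CPM, and Itga2b was called higher (log2 3.20, adjusted p = 0.00472). The difference in the sum was mostly that of Itga2b (92.8 to 243 CPM against 16.1 to 21.8 CPM). Pf4 was at 69.9, 5.55 and 0.837 CPM in leukemic_26, leukemic_28 and leukemic_39, against 9.19 to 23.0 CPM, and Gp9 was at 0.507 to 1.05 CPM against 0.0877 to 1.02 CPM. Without preleukemic_445 and preleukemic_479 the calls of Klf1 (adjusted p = 0.0254) and Itga2b (0.0167) held. The 3 T cell markers in the table summed to 14.5 to 20.5 CPM against 0 to 0.492 CPM, nearly all from Trbc1, while Cd3e was at or below 0.0274 CPM in these leukaemic libraries. The 6 myeloid markers in the table summed to 0.203 to 0.562 CPM against 0.0292 to 0.356 CPM, the 5 mast cell markers were at 0.127 to 11.1 CPM against 1.75 to 15.9 CPM, and the 5 stromal and endothelial markers at 1.04 to 7.44 CPM against 9.82 to 276 CPM. The last of these sums was mostly Col1a2 in the preleukaemic libraries, with 273 CPM in preleukemic_40 and 9.77 and 20.4 CPM in the others, against 0.152 to 5.57 CPM. Of the endothelial markers, Cdh5 was at 0.178 to 0.521 CPM in leukaemic and 0 in preleukaemic libraries, and Pecam1 was at 0.274 to 1.53 CPM against 0 to 0.0323 CPM. In the second table, edgeR called Cdh5 higher in FA-/- leukaemic than in FA+/+ preleukaemic cells. This call was lost in 6 of the 7 fits that left out 1 library (adjusted p up to 0.122). The part of a shift in these cell markers in the levels of Mcl1, Bak1 and Bmf was not tested.

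Among 10440 genes with at least 1 CPM, those with the pattern most like the 3 members with the widest fitted changes in model 1 were named, as a description over 10 libraries that share group and mouse. For Bcl2 they were Dip2c (Pearson r = 0.965), Rapgef4 (0.957) and Dph3 (0.950). For Bmf they were Hspa12b (r = 0.987), Intu (0.979) and Mok (0.978). For Bik they were Ruvbl1 (r = 0.926), Aqp8 (0.917) and Hes6 (0.907).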

How the data were processed

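RNA-seq libraries (polyA, stranded kit) of cultured erythroid blasts from 17 mice were analysed from the deposited tables. The authors made these tables as raw read counts per gene. Their processing notes name bcl2fastq 2.17.1.14, STAR 2.5.3a, HTSeq 0.6.1p1 and the builds mm10 and GRCm38, with no normalization of the counts. How the second table of 7 mice was made is not given in the sources used here, and 1 file identical to the table of model 2 was not used.

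Genes were filtered (filterByExpr by group), TMM-scaled and tested with edgeR 4.0.16 (quasi-likelihood, R 4.3.3), in 1 fit per table. The difference between models was fitted over all 17 libraries, on the genes in both tables. A call needed a Benjamini-Hochberg adjusted p under 0.05 and at least 1.5-fold. DESeq2 1.42.0 was an alternative, as were its size factors, no filter, fewer groups and each library left out. The fits were tested on simulated counts. CPM per kilobase used exon lengths of GENCODE (GRCm38). Per-sample depth was 29964576 to 40514205 counts, and levels of 3 counts or fewer per library were taken as the floor, which covers counting error only. The neighbour comparison used 1 Mb either side and log2(CPM + 0.1). All members of the family were named, with the called genes of each pathway list. One gene of a pathway list is not reported here and was left out of its counts. Members and lists were chosen with earlier results of these data known. Figures were drawn with matplotlib 3.10.9.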

Additional observations from a re-analysis of the deposited data

Results flagged for a closer look

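A library far from the rest of its group was looked for in the 30 groups of 4 libraries formed by the 10 members, and 2 were found. Chance gives about 1 in 20 groups, so 2 of 30 is close to that share. Both were preleukemic_138 of the FA+/+ preleukaemic mice of model 1. Bak1 was at 111 CPM there, against 180 to 183 CPM in preleukemic_445, preleukemic_479 and preleukemic_451. Bcl2l2 was at 28.37 CPM, against 13.2 to 15.4 CPM in the same mice. Among these 3, preleukemic_445 and preleukemic_479 are the nearly identical libraries, so they are not 3 separate libraries as the chance rate assumes. In the second table, whose groups were among the 30, preleukemic_138 was flagged for neither gene.

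A difference between the models in the change from preleukaemic to leukaemic cells was called for 4 genes of the pathway lists and no member. The test was the interaction term of edgeR's quasi-likelihood fit, which called 4.61% of 14597 genes. The 4 were 1 of 13 tested apoptosome and caspase genes, 1 of 5 inhibitor of apoptosis genes and 2 of 10 regulators. Of 11 other BCL2 family genes and 7 death receptor pathway genes, 0 were called. The log2 difference (model 1 minus model 2) was -1.549 for Htra2 (adjusted p = 0.0428), -0.9323 for Birc5 (adjusted p = 0.0468), -1.249 for Bag1 (adjusted p = 0.0428) and -1.19 for Becn1 (adjusted p = 0.0292). Birc5, for the inhibitor of apoptosis survivin, was at 158 to 228 CPM in leukaemic and 91.6 to 124 CPM in preleukaemic cells of model 2, and at 116 to 135 CPM against 105 to 140 CPM in the FA-/- cells of model 1. In model 2, the 5 mast cell markers summed to 63.7 to 72.1 CPM in leukaemic and 2.57 to 55.8 CPM in preleukaemic libraries. Cpa3 was at 12.6 to 31.4 CPM against 0 to 2.32 CPM and Cma1 at 2.39 to 4.49 CPM against 0 to 0.400 CPM. Fcer1a overlapped (24.5 to 52.6 CPM against 2.55 to 52.1 CPM), as did Mcpt4 (1.56 to 13.5 CPM against 0.0252 to 4.60 CPM). Tpsb2 did not exceed 0.228 CPM. The part of the mast cell markers in the level of Birc5 was not tested. Of the 17 fits that each left out 1 library, the call was lost in 12 for Htra2 (adjusted p up to 0.0983), 15 for Birc5 (0.108), 14 for Bag1 (0.101) and 7 for Becn1 (0.0770). Without a filter on low counts the calls of Htra2 (0.0594), Birc5 (0.0705) and Bag1 (0.0607) were lost, and with DESeq2's size factors that of Birc5 (0.0565). Strain and library protocol differ between the models and cannot be told apart from them.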

How the results depend on the processing

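No paired analysis was possible because no 2 groups shared a mouse number. DESeq2's size factors in place of TMM changed no call of a member. For each setting below the cause was not tested. With DESeq2's Wald test, 3099 genes were called between stages of model 1 (1892 higher; 5 members), 256 between genotypes (35 higher, 221 lower; 1 member), 470 in model 2 (151 and 319), 2023 in the second table (1503 and 520; 4 members) and 2037 for the difference between models (1387 and 650; 3 members). Without preleukemic_445 and preleukemic_479, 759 were called between stages of model 1 (399 and 360), and with only both groups compared 491 were lower. With no filter, the counts were 4 between genotypes (all 4 lower), 538 in the second table (457 and 81) and 279 for the difference between models (190 and 89). For the groups of the second table, the table of model 1 gave 939 calls (476 and 463) and -0.30 for Bad in place of 0.036 on the log2 scale.

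Without each library in turn, the stages of model 1 gave 414 to 2319 calls (194 to 1241 higher, 183 to 1078 lower, and 1 to 4 members), the genotypes 1 to 16 (0 to 6 and 1 to 10), model 2 0 to 1, the second table from 5 to 864 (5 to 670, 0 to 194, and 0 to 3 members) and the difference between models 1 to 1359 (1 to 789 and 0 to 570). Members with groups apart numbered 6 to 7, 0 to 2, 0 to 2 and 4 to 6 in the first 4 of these comparisons. Groups that are apart stay apart when a library is left out, so these numbers could only stay or rise. They do not measure how firm the separation is, and no share over all genes is given for them. Log2 values that changed sign, none of them called, ranged from -0.37 to 0.35 for Bad between stages of model 1, from -1.08 to 0.94 for Bik, -1.09 to 1.44 for Bmf and -0.10 to 0.18 for Bak1 between genotypes, from -2.10 to 0.35 for Bcl2, -0.80 to 0.97 for Bcl2l11 and -0.33 to 0.28 for Bcl2l2 in model 2, from -0.51 to 0.074 for Bcl2l11 and -0.23 to 0.17 for Bad in the second table, and from -1.43 to 0.31 for Bcl2l11 and -0.56 to 1.75 for Bik for the difference between models. Bmf and Bcl2 had at most 8 counts in each FA-/- preleukaemic library, so differences among these libraries were not measurable at this depth.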

Other observations

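Around Bmf, a preleukaemic FA+/+ mouse of model 1 stood apart. In preleukemic_451, 2 of 21 genes within 1 Mb of Bmf were above the FA-/- preleukaemic mean of log2(CPM + 0.1), with a median difference of -0.88, while the rest of chromosome 2 (743 genes) had a median of -0.05. In the second table, 0 of 22 genes were above the FA+/+ preleukaemic mean in this mouse (median -0.72, and -0.06 over 764 other genes of the chromosome). Bmf itself was at 0 CPM in preleukemic_451 in the first table and 0.348 CPM in the second. These values were looked at after the region of Mcl1 had been examined. They were picked from the windows of all members in every library, and how many other windows lay as far off is not given.

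Trbc1, a T cell receptor constant gene, was at 14.5 to 20.5 CPM in the FA-/- leukaemic mice of model 1 and 22.9 to 52.9 CPM in the same mice of the second table. In the FA+/+ preleukaemic mice of model 1 it was at 4.18, 4.66, 0 and 7.18 CPM (preleukemic_445, preleukemic_479, preleukemic_451 and preleukemic_138). The same mice had 1.25, 1.40, 1.30 and 18.3 CPM in the second table, so its presence was not particular to the leukaemic mice. It was at or below 0.0284 CPM in all libraries of model 2.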
